A study of Homo sapiens with 4 samples.

Results

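Replication-dependent histone genes encode the bulk of the histones that package newly copied DNA. They were examined in LN229, an established human glioblastoma cell line, after treatment with UM-164, an inhibitor of c-Src and p38. RNA was sequenced from cells given 100 nM UM-164 (2 libraries) and from cells given vehicle, DMSO (2 libraries), all collected at 24 h. Both groups were the same line from a cell bank, with no genetic change named in the labels. The rule that defines the genes reads the symbol and a protein-coding transcript and no expression value, and 61 of the 27694 genes in the table qualified. They comprise 5 linker histone H1 genes, 15 H2A genes, 15 H2B genes, 13 H3 genes and 13 H4 genes. No source used here states that libraries of the same group were grown apart, so each p-value reflects library-to-library spread, possibly technical. The sources also do not say whether poly(A) RNA was selected before sequencing.

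The nucleosome core is built of H2A, H2B, H3 and H4, and H1 binds the DNA that enters and leaves it. Most replication-dependent histone genes lie in clusters and are transcribed mainly in S phase, and their mRNAs end in a conserved stem-loop in place of a poly(A) tail. The stem-loop is bound by SLBP, which acts in processing, export, translation and decay of these mRNAs. Some of the genes also make polyadenylated mRNA, often where cells leave the cycle. Many replication-independent histones, such as H2AZ1 and H3-3B, are made through the cycle from ordinary polyadenylated mRNAs.

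The stem-loop is the feature that sets these mRNAs apart from most others. In GENCODE v29 (GRCh38), which holds 59 of the 61 genes by identifier (not H3C2 and H3C3), 47 lie on chromosome 6, 11 on chromosome 1 and 1 on chromosome 12. A match to the 16-base histone stem-loop consensus was found in an annotated protein-coding transcript of 29 of the 59, against 83 of 19684 protein-coding genes (0.422%). A stem-loop beyond the end of the annotated transcript would be missed, and for 26 of the 59 that transcript was the coding sequence alone. The count of 29 therefore does not show that the other genes lack a stem-loop. The form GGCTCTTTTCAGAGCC was found in 15 genes, of which 5 encode H2A, 7 encode H2B and 3 encode H3. All 8 H4 genes with a match had GGCCC on the 5′ side of the stem, with the loop as in H4C11 in 5 genes and as in H4C15 in 3 genes. The stem-loops of members described below are shown with 5 bases on each side, and capitals mark the stem-loop, whose GRCh38 position is given. H2AX is given last, as the only match among 12 histone genes listed here as replication-independent.
H2AC18 (chr1:149842223-149842238, - strand): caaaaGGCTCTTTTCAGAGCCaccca
H2BC21 (chr1:149886188-149886203, - strand): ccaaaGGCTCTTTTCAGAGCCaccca
H2BC5 (chr6:26158587-26158602, + strand): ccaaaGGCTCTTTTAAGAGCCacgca
H4C11 (chr6:27824459-27824474, + strand): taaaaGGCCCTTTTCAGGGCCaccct
H4C15 (chr1:149860769-149860784, - strand): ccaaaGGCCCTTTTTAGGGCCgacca
H2AX (chr11:119094898-119094913, - strand): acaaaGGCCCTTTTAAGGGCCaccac

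What a value of such a gene counts depends on the annotation behind the FPKM. That annotation was not GENCODE v29, which lacks the identifiers of H3C2 and H3C3. The models below are from GENCODE v29, and those behind the FPKM may differ. For 26 genes, H1-2 and H2BC12 among them, the annotated transcript was the coding sequence alone. For 8 genes the model stopped soon after the stem-loop. For 21 genes, H2AC6 and H2BC21 among them, a coding transcript ran more than 100 bases past it. Some of the 21, such as H3C6, also had a coding transcript that ended soon after it. The H2BC21 transcript continued for 1729 bases after its stem-loop and that of H2AC6 for 1114 bases. Another limit is sequence shared between genes. At least 50% of the 50-base stretches of 15 members also occurred in another annotated gene, whereas 24 members shared none. H2AC18 shared 100% of its stretches with H2AC19, H4C12 100% with H4C11, H4C14 100% with H4C15, and H3C14 100% with H3C15. Reads from such copies cannot be assigned to one gene by sequence, and their separate values are uncertain. The FPKM of H2AC18 was 0.994 to 1.03 times that of H2AC19 over the 4 libraries, and that of H4C11 was 0.950 to 0.995 times that of H4C12. H4C14 was at 0.599 to 0.894 times H4C15 and H3C14 at 1 to 1.14 times H3C15. H1-2 and H1-4 shared no such stretch with any gene.

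The promoters of these genes carried 3 short motifs more often than other promoters. RefSeq promoters (GRCh38.p14) were matched for 55 members, and the 250 bases before the start were searched on both strands for the CCAAT box, for the TATA box written TATAAA, and for the octamer ATTTGCAT. The CCAAT box occurred in 85.5% of the 55 member promoters, against 33% of 27305 promoters, TATAAA in 67.3% against 11.1%, and ATTTGCAT in 41.8% against 1.66%. The octamer, which POU2F1 binds, was in 12 of 15 H2B and 10 of 14 H2A promoters, in 1 of 11 H3 promoters, and in 0 of 5 H1 and 0 of 10 H4 promoters. Some H2A and H2B genes lie head to head with overlapping windows, and the same octamer can then be counted under both types. H2AC6 and H2BC4 are an example, so the H2A and H2B counts are not independent. The H3 match is H3C4, whose RefSeq start is that of H2AC7, so the same window is counted under both types and lies away from the H3C4 gene of GENCODE v29. CCAAT was present in every matched H1, H2A, H2B and H3 promoter but in only 2 of 10 H4 promoters. The 180 bases before the start are shown for 4 members with log2 fold changes above 0 and intervals that leave out 0, from 3 histone types. Capitals mark these motifs on either strand. The letters are a description of the window and do not show that a factor binds.
H1-4 (chr6:26156149-26156328, + strand): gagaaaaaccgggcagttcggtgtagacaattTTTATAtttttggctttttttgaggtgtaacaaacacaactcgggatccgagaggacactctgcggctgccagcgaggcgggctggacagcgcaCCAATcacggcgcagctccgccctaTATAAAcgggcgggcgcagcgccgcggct
H2BC11 (chr6:27132796-27132975, - strand): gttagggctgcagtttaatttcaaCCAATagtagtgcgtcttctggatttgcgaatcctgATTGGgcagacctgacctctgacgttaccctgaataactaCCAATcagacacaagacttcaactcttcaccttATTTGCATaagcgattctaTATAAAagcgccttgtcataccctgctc
H2BC21 (chr1:149886683-149886862, - strand): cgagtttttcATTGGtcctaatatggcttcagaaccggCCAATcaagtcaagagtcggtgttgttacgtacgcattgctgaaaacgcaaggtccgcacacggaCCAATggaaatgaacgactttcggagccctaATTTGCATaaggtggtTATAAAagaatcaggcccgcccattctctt
H4C11 (chr6:27823912-27824091, + strand): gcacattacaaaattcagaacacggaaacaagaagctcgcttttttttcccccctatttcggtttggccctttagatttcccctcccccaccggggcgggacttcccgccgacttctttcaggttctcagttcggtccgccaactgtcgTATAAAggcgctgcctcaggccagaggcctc

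Expression was deposited as FPKM, in which a gene's fragments are divided by its transcript length and by all mapped fragments of that sample. FPKM gives no read count, so the depth behind a value is unknown. In the summed FPKM of the 61 genes, UM-164 libraries had 123 and 130.4, against 109.5 and 101.3 in vehicle libraries. The means were 126.6 ± 5.46 in UM-164 and 105.4 ± 5.81 in vehicle libraries (SD, n = 2 each), a log2 ratio of 0.26, and the groups did not overlap. These genes made up 0.0388% and 0.0409% of the summed FPKM of all genes in UM-164 libraries and 0.0374% and 0.0360% in vehicle libraries. With 2 libraries against 2, the smallest two-sided p of an exact permutation test is 0.33, so no sum could pass that test, and no p is given for sums. In bulk RNA, fewer cells that express a gene and less RNA per cell cannot be told apart.

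By histone type, the ratio of summed FPKM was largest for H4. The 13 H4 genes summed to 16.9 and 16.2 FPKM in UM-164 libraries, against 12.2 and 10.7 in vehicle libraries, a ratio of 1.45. The 9 H4 genes with a mean FPKM under 1 summed to 2.97 and 3.59 in UM-164 libraries and 3.36 and 1.84 in vehicle libraries, which overlapped. The remaining H4 genes, which hold most of the sum, are pairs of copies. H1 genes summed to 31.9 and 30.5 FPKM in UM-164 libraries and to 27.8 and 23.3 in vehicle libraries. H2B genes summed to 35.98 and 37.3 FPKM in UM-164 libraries, against 30.7 and 31.0 in vehicle libraries. For H1, H2B and H4 both UM-164 libraries were above both vehicle libraries. H2A genes summed to 34.0 and 41.9 FPKM in UM-164 libraries and to 33.5 and 32.9 in vehicle libraries, and the log2 ratio of 0.19 became 0.04 without UM-164 library 2. H3 genes summed to 3.93 and 4.55 FPKM in UM-164 libraries, inside the 5.43 and 3.39 of the vehicle libraries.

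**Figure D1:**
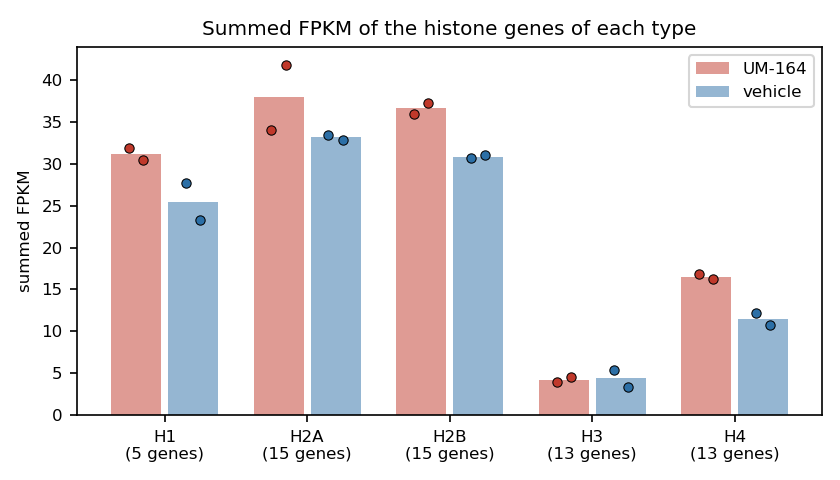
Summed FPKM (vertical axis) of the replication-dependent histone genes of each type, with 1 point per library, bars at the mean of 2 libraries and UM-164 left of vehicle. H4 genes summed to 16.9 and 16.2 in UM-164 libraries and 12.2 and 10.7 in vehicle libraries, while the H3 groups overlapped.

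A few genes made up most of this sum. H1-2, H2BC12, H2AC18 and H2AC19 together held 56.1% and 58.8% of it in UM-164 libraries and 60.4% and 61.2% in vehicle libraries. The median of the genes' mean FPKM was 0.415, and 16 genes were listed at 0 in at least 1 library. By type this median was 0.898 for H1, 0.415 for H2A, 0.505 for H2B, 0.303 for H3 and 0.534 for H4. The filter for testing, an average of 1 FPKM or more across libraries, was met by 17 genes: 2 H1, 6 H2A, 5 H2B, 4 H4 and no H3 gene. Just inside the filter were H2BC4 at a mean FPKM of 1.07, H1-4 at 1.08 and H2AC17 at 1.10, and just outside were H2AC11 at 0.910, H1-5 at 0.898 and H3C3 at 0.884. H1-4, H2AC17 and H2BC4 averaged under 1 FPKM in vehicle libraries and passed through their UM-164 values.

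**Figure D2:**
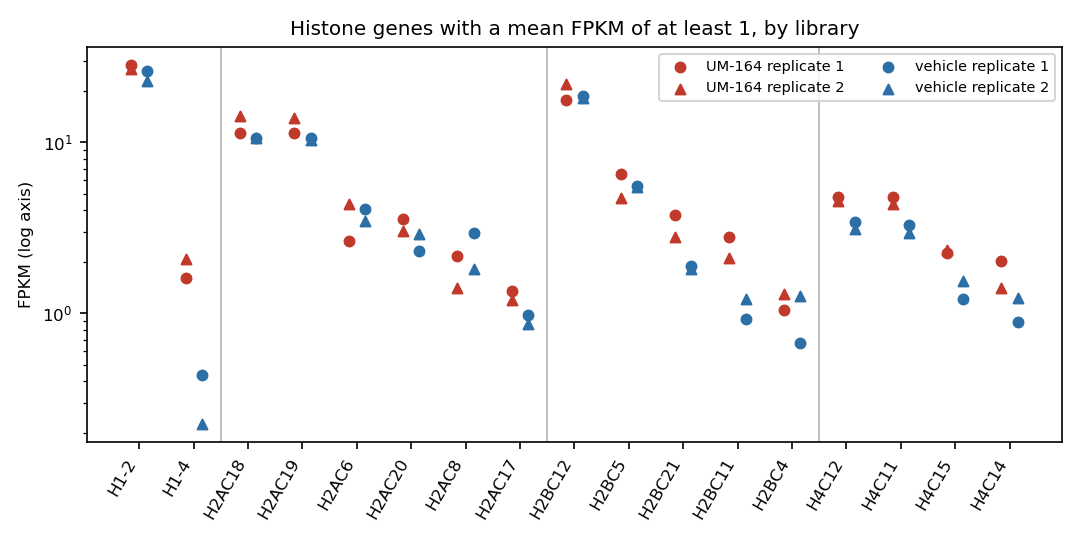
FPKM of the 17 tested histone genes (log axis) in each library, with UM-164 in red left of vehicle in blue and genes grouped by histone type. H1-2 was highest, at 28.4 and 26.8 in UM-164 and 26.2 and 22.7 in vehicle libraries, and H1-4 had the widest gap between groups.

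Among the linker histones, H1-4 had the largest difference of the tested members. H1-4 (ENSG00000168298, chr6:26156354-26157107, plus strand, GRCh38) encodes histone H1.4 from a single annotated transcript. It had an FPKM of 1.60 and 2.07 in UM-164 libraries, against 0.436 and 0.226 in vehicle libraries. Both UM-164 libraries stood above both vehicle libraries, by a log2 fold change of 1.49 (standard error 0.23, 95% interval 0.91 to 2.08). The adjusted p was 0.0592 by limma with Benjamini-Hochberg adjustment over 11516 genes, so the gene did not pass the threshold of 0.05. It passed when protein-coding genes were rescaled to one sum, at an adjusted p of 0.0263 by limma, and over all alternatives the adjusted p lay between 0.0263 and 0.214. All fold changes here were taken after 0.5 was added to each FPKM, and therefore come out too small for weakly expressed genes. With 1 added that of H1-4 was 1.09, and with 0.1 added it was 2.20.

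H1-2, which encodes H1.2 and is known to make polyadenylated mRNA, had an FPKM of 28.4 and 26.8 in UM-164 libraries and 26.2 and 22.7 in vehicle libraries. Its log2 fold change was 0.17 (95% interval -0.10 to 0.45, adjusted p = 0.422 by limma). H1-5, which encodes H1.5, was under the filter, with 1.74 and 0.954 FPKM in UM-164 libraries and 0.663 and 0.236 in vehicle libraries. As with H1-4, neither group's range reached the other's. H1-3 overlapped between groups, and H1-6, the testis H1, was listed at 0 in all libraries but vehicle 1.

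Of the H2A genes, the near-identical copies H2AC18 and H2AC19 were the highest. H2AC18 had an FPKM of 11.4 and 14.2 in UM-164 libraries and 10.6 in both vehicle libraries. H2AC19 had 11.4 and 13.9 FPKM in UM-164 libraries and 10.7 and 10.3 in vehicle libraries. Because the copies share their sequence, these are in effect the same measurement, and each had a log2 fold change of 0.25. For both, UM-164 library 2 was the high one, and without it the log2 fold changes were 0.096 and 0.11, while without UM-164 library 1 they were 0.41 and 0.39. The interval of H2AC18 ran from -0.09 to 0.60. H2AC20 had 3.57 and 3.02 FPKM in UM-164 libraries and 2.33 and 2.91 in vehicle libraries. H2AC17 had 1.35 and 1.19 FPKM in UM-164 libraries and 0.976 and 0.870 in vehicle libraries, with 86.3% of its 50-base stretches also in an annotated transcript of H3C12 that overlaps it. Both UM-164 libraries were above both vehicle libraries for these 4 genes, and their adjusted p by limma lay between 0.353 and 0.399.

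H2AC6 and H2AC8 were the tested members with log2 fold changes below 0. H2AC6, a gene known to make polyadenylated mRNA, had 2.63 and 4.34 FPKM in UM-164 libraries and 4.05 and 3.46 in vehicle libraries. H2AC8 had 2.16 and 1.41 FPKM in UM-164 libraries and 2.94 and 1.81 in vehicle libraries. The groups overlapped for both, at log2 fold changes of -0.13 and -0.32 with standard errors of 0.24 and 0.27. That of H2AC8 was -0.037 without vehicle library 1, -0.087 without UM-164 library 2, -0.56 without UM-164 library 1 and -0.61 without vehicle library 2. H2AC11 was under the filter, with 0.682 and 0.828 FPKM in UM-164 libraries and 0.895 and 1.24 in vehicle libraries. It lies head to head with H2BC11, so the promoter printed for H2BC11 overlaps the window before H2AC11.

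Among H2B genes, H2BC11 and H2BC21 differed most. H2BC11 (ENSG00000124635, chr6:27125897-27132750, minus strand) had an FPKM of 2.79 and 2.09 in UM-164 libraries and 0.932 and 1.22 in vehicle libraries. Its log2 fold change was 0.90 (standard error 0.20, 95% interval 0.38 to 1.41, adjusted p = 0.106 by limma). H2BC21 (ENSG00000184678, chr1:149884459-149886652, minus strand), known for polyadenylated transcripts in differentiated cells, had 3.76 and 2.80 FPKM in UM-164 libraries and 1.89 and 1.82 in vehicle libraries. Its log2 fold change was 0.67 (standard error 0.18, 95% interval 0.22 to 1.12, adjusted p = 0.139 by limma). Neither gene's groups overlapped, and neither passed the test.

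H2BC12, the most highly expressed H2B gene, had an FPKM of 17.7 and 21.9 in UM-164 libraries and 18.7 and 18.3 in vehicle libraries. Of its 50-base stretches, 74.1% also occurred in other annotated genes, so its own value is uncertain. H2BC5 had 6.56 and 4.70 FPKM in UM-164 libraries and 5.58 and 5.45 in vehicle libraries. H2BC4 had 1.05 and 1.29 FPKM in UM-164 libraries, against 0.671 and 1.26 in vehicle libraries. All 3 overlapped between groups, with log2 fold changes of 0.09, 0.01 and 0.21. Under the filter, H2BC17 had 1.36 and 0.796 FPKM in UM-164 libraries and 0.487 and 0.403 in vehicle libraries. H2BC9 overlapped, with 0.475 and 0.596 FPKM in UM-164 libraries and 0.461 and 1.07 in vehicle libraries.

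The 4 tested H4 genes all had log2 fold changes above 0. H4C11 (ENSG00000197238, chr6:27824108-27824480, plus strand) had an FPKM of 4.79 and 4.37 in UM-164 libraries and 3.28 and 2.97 in vehicle libraries. Its copy H4C12 had 4.82 and 4.51 FPKM in UM-164 libraries and 3.42 and 3.12 in vehicle libraries. Their log2 fold changes were 0.49 (95% interval 0.16 to 0.82) and 0.45 (0.14 to 0.77), at adjusted p of 0.144 and 0.150 by limma. H4C15 had 2.26 and 2.35 FPKM in UM-164 libraries and 1.21 and 1.55 in vehicle libraries, and its copy H4C14 had 2.02 and 1.41 FPKM in UM-164 libraries and 0.888 and 1.23 in vehicle libraries. Their log2 fold changes were 0.58 (95% interval 0.16 to 1.01) and 0.50 (-0.07 to 1.07). H4 proteins from these genes are the same, and the 4 tested genes form 2 pairs of copies, so they are not 4 separate measurements. H4C8, under the filter and with no shared stretch, had 1.05 and 1.06 FPKM in UM-164 libraries and 0.600 and 0.624 in vehicle libraries. Over all 13 H4 genes, both UM-164 libraries were above both vehicle libraries in 8, where 21.4% of all genes were, and below them in none, where 17.5% were. The 8 include both pairs of copies.

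No H3 gene reached a mean FPKM of 1. H3C3 had 0.873 and 0.934 FPKM in UM-164 libraries, between the 1.09 and 0.642 of the vehicle libraries. H3C4 had 0.113 and 0.124 FPKM in UM-164 libraries and 1.03 and 0.134 in vehicle libraries. Most of its difference came from vehicle library 1. It shared 100% of its 50-base stretches with another annotated gene, so its own value is uncertain. H3C7, named after its values were seen, was listed at 0 in both UM-164 libraries and at 0.266 and 0.284 FPKM in vehicle libraries. Of the 13 H3 genes, 2 had both UM-164 libraries above and 3 had both below, which is near the all-gene shares of 21.4% and 17.5%. The sum over H3 genes had a log2 ratio of -0.06, which became 0.05 without UM-164 library 1 and 0.32 without vehicle library 1.

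By limma, 0 of the 17 tested members passed an adjusted p of 0.05 in either direction, where 1.31% of all tested genes did (0.452% higher and 0.86% lower). At an unadjusted p under 0.05, 6 members were higher in UM-164 libraries, where 9.47% of tested genes were, and 0 were lower, where 10.6% were. The 6 were H1-4, H2BC11, H2BC21, H4C11, H4C12 and H4C15, and the count was 3 without UM-164 library 1, 4 without UM-164 library 2 and 0 of 5 at a mean FPKM of at least 5. Of the 17 log2 fold changes 15 were above 0, as were 51.9% of all tested, and 2 were below 0, as were 48.1%. Their median was 0.28 against 0.01 over all tested genes. Both UM-164 libraries were above both vehicle libraries in 12 of the 17, against 27.7% of tested genes, and below in 0, against 25.5%. These counts and the median are descriptions: copies repeat each other, and the filter favoured a positive sign for H1-4, H2AC17 and H2BC4, which are among the 15.

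**Figure D3:**
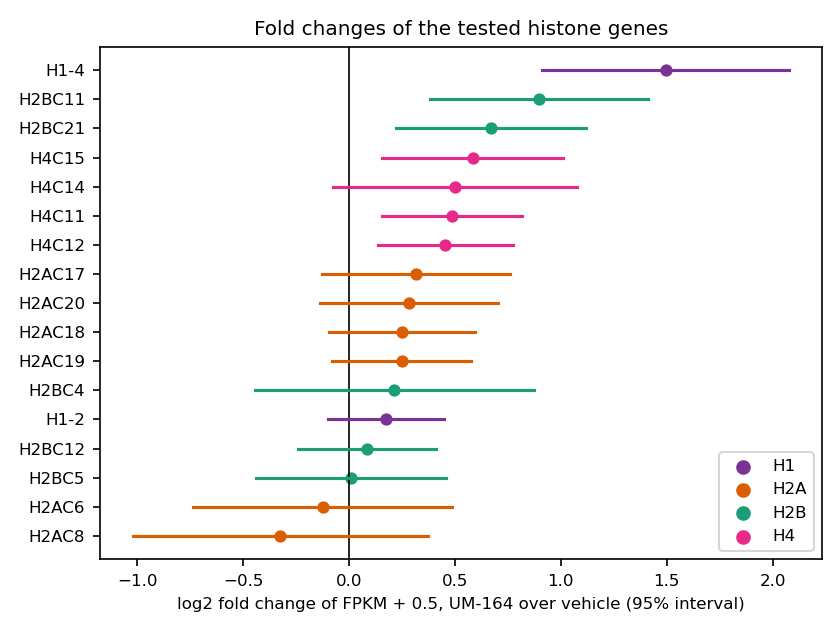
Log2 fold change of FPKM + 0.5, UM-164 over vehicle, for the 17 tested histone genes, with 95% intervals from limma and colours by histone type. H1-4 is highest at 1.49, 6 intervals leave out 0, and H2AC6 and H2AC8 are below 0.

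Without the filter all 61 members could be counted. Both UM-164 libraries were above both vehicle libraries in 27 of the 61 (44.3%), against 21.4% of all 27694 genes, and below in 6 (9.84%), against 17.5%. The other 28 overlapped. Both counts include genes with values near 0, such as H4C2 among the 27 and H3C7 among the 6. The 27 also include both genes of pairs of copies, such as H4C11 and H4C12. In a fit without the filter, limma called 0 of the 61 members, where 0.0144% of all genes were called. At an unadjusted p under 0.05 there were 11 members higher and 3 lower, where 5.92% and 6.11% of all genes were, and the smallest adjusted p was 0.190, for H3C7. The 44 genes under the filter summed to 14.5 and 18.1 FPKM in UM-164 libraries and 14.7 and 11.4 in vehicle libraries, and these overlapped. Of the 44, 15 had both UM-164 libraries above and 6 had both below, where 21.4% and 17.5% of all 27694 genes, at any level, did.

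**Figure D4:**
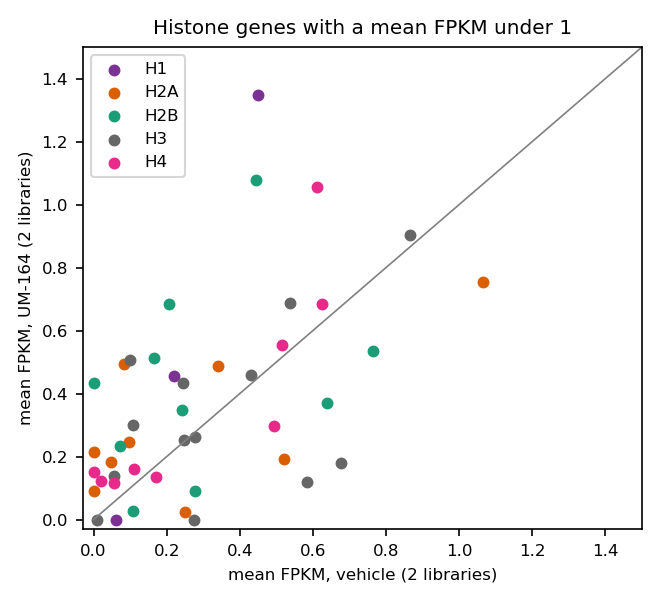
Mean FPKM in UM-164 libraries (vertical axis) against mean FPKM in vehicle libraries (horizontal axis) for the 44 histone genes with a mean FPKM under 1, coloured by type, with the line of equality. Points lie on both sides of the line, with H1-5, H2BC17 and H4C8 well above it.

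The genes were also divided by a list of 5 members known to make polyadenylated mRNA (H1-2, H2AC6, H2BC5, H2BC12 and H2BC21). The list may be incomplete, so some of the other 56 may make such mRNA too. The 5 listed genes summed to 59.1 and 60.5 FPKM in UM-164 libraries and 56.4 and 51.8 in vehicle libraries, a log2 ratio of 0.14. The other 56 summed to 63.7 and 70.0 FPKM in UM-164 libraries and 53.1 and 49.5 in vehicle libraries, a log2 ratio of 0.38. The groups did not overlap in either sum. The median log2 fold change was 0.09 over the 5 genes and 0.39 over the 12 tested members of the rest. H2BC21 stood apart among the 5, at 0.67. The 12 include H1-4, H2AC17 and H2BC4, which passed the filter through their UM-164 values, as well as pairs of copies. The lowest vehicle mean of the 5 listed genes was 1.86 FPKM, for H2BC21. The filter therefore favoured a higher median among the 12. The difference between the medians was not tested.

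Other RNAs that lack a long poly(A) tail also had higher values in UM-164 libraries. The 7 tested members of that list, which hold RNA components of ribonucleoproteins and mitochondrial ribosomal RNAs, had log2 fold changes of 0.75 to 3.33 with a median of 1.91, and 5 of the 7 rose by limma, where 0.452% of tested genes did. RN7SL1, an RNA of the signal recognition particle, had 88.7 and 93.7 FPKM in UM-164 libraries and 20.96 and 16.5 in vehicle libraries (log2 fold change 2.26, adjusted p = 0.0101 by limma). RN7SK, which restrains the elongation factor P-TEFb, had 4.86 and 4.73 FPKM in UM-164 libraries and 1.14 and 0.718 in vehicle libraries (1.91, adjusted p = 0.0261 by limma). RN7SK, RMRP and RPPH1 averaged 0.928, 0.247 and 0.684 FPKM in vehicle libraries and passed the filter through their UM-164 values. The filter thus favoured a positive sign for them, and RN7SK holds the median. Under the filter, VTRNA1-1 overlapped, with 0.520 and 0.251 FPKM in UM-164 libraries and 0 and 0.536 in vehicle libraries. RN7SL3, also under it, had 0.876 and 1.53 in UM-164 libraries and 0.193 and 0.0727 in vehicle libraries. RMRP, listed at 0 in vehicle library 2, and RPPH1 did not pass. RN7SL2, MT-RNR1 and MT-RNR2 were the other calls, and the count was 0 without vehicle library 1, 1 without vehicle library 2 and 3 without UM-164 library 2. The 9 listed RNAs in the table took 0.978% and 1.12% of the summed FPKM in UM-164 libraries and 0.427% and 0.492% in vehicle libraries. Their part in the histone values was not tested.

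In summed FPKM, replication-independent H1, H2A and H3 genes stood far above the replication-dependent ones, although CENPA, MACROH2A1 and some others were below H1-2. Whether poly(A) RNA was selected is not stated, so the shares below describe the libraries and may differ from those in the cells. Replication-dependent genes made 6.44% and 6.401% of the summed FPKM of H1 genes in UM-164 libraries, against 5.70% and 5.17% in vehicle libraries. They made 7.53% and 9.54% of H2A FPKM in UM-164 libraries and 6.16% and 6.37% in vehicle libraries, and 2.26% and 2.85% of H3 FPKM in UM-164 libraries and 2.95% and 1.70% in vehicle libraries. These shares also move with the replication-independent sums. Those were 418 and 397 FPKM for H2A in UM-164 libraries and 510 and 483 in vehicle libraries. For H3 they were 170 and 155 FPKM in UM-164 libraries and 179 and 196 in vehicle libraries, whereas the H1 groups overlapped. Of 11 tested replication-independent genes 0 passed by limma, 7 had log2 fold changes below 0 (48.1% of all tested), and 5 were lower (10.6% of all tested) and 0 higher (9.47%) at an unadjusted p under 0.05. H2AX, the variant phosphorylated at DNA breaks and the only one with a stem-loop match, had 88.6 and 82.3 FPKM in UM-164 libraries and 143 and 125 in vehicle libraries, a log2 fold change of -0.65. CENPA, the H3 variant of centromeres, had 10.1 and 8.55 FPKM in UM-164 libraries and 15.5 and 13.6 in vehicle libraries (-0.61). MACROH2A1 had 9.55 and 10.1 FPKM in UM-164 libraries and 13.1 and 12.5 in vehicle libraries (-0.36). H2AX passed under 3 alternatives.

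Genes that act in S phase and on histone mRNA or protein were also counted. All 20 G1/S genes had both UM-164 libraries below both vehicle libraries, where 25.5% of tested genes did, and log2 fold changes of -1.18 to -0.12 with a median of -0.53. By limma 0 of the 20 passed, and 15 were lower and 0 higher at an unadjusted p under 0.05, where 10.6% and 9.47% of tested genes were. E2F1, a transcription factor of S phase entry, had 65.6 and 65.8 FPKM in UM-164 libraries and 103 and 93.2 in vehicle libraries (adjusted p = 0.0600 by limma). TK1, a thymidine kinase, had 176 and 169 FPKM in UM-164 libraries and 286 and 250 in vehicle libraries, and CCNA2, cyclin A2, had 20.5 and 19.7 in UM-164 libraries and 29.02 and 30.3 in vehicle libraries. The direction of these genes was opposite to that of most tested members.

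Among 15 tested genes of histone mRNA transcription, processing and decay, 0 passed by limma, and 1 was higher and 1 lower at an unadjusted p under 0.05, no more than the 9.47% and 10.6% of all tested genes. The lower gene was SLBP, the stem-loop binding protein, with 29.05 and 26.3 FPKM in UM-164 libraries and 37.0 and 42.7 in vehicle libraries (log2 fold change -0.52, adjusted p = 0.1005 by limma). The higher one was TUT7, a uridylyltransferase that acts in histone mRNA decay, with 1.43 and 1.92 FPKM in UM-164 libraries and 0.637 and 1.08 in vehicle libraries. TUT7 averaged 0.861 FPKM in vehicle libraries and passed the filter through its UM-164 values. UPF1, a helicase of histone mRNA decay, had a log2 fold change of -0.19. Of 19 tested histone chaperones 0 passed by limma, 5 were lower (10.6% of all tested) and 0 higher (9.47%) at an unadjusted p under 0.05, and the median log2 fold change was -0.19. ASF1B, a carrier of new H3-H4, had 55.0 and 52.2 FPKM in UM-164 libraries and 89.1 and 81.2 in vehicle libraries (log2 fold change -0.66, adjusted p = 0.0505 by limma). The CAF-1 subunits CHAF1A and CHAF1B had log2 fold changes of -0.48 and -0.56.

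**Figure D5:**
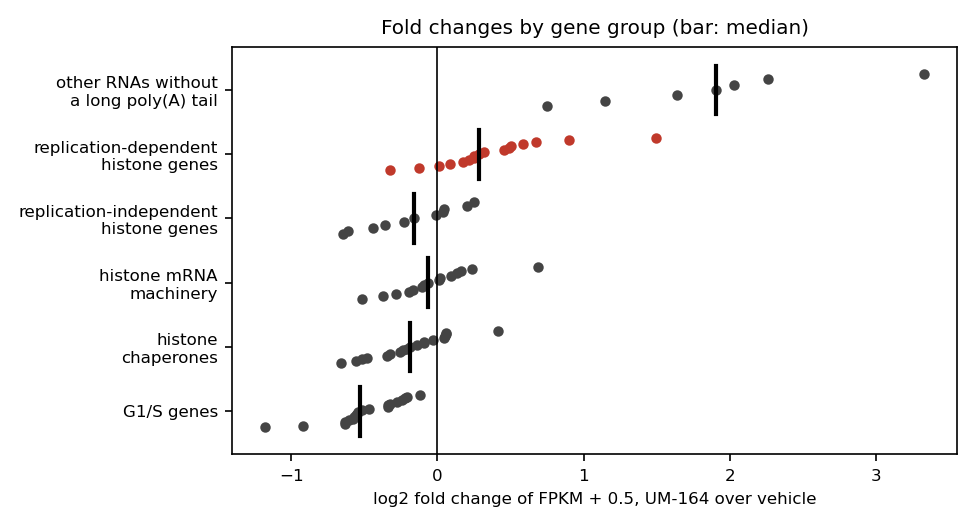
Log2 fold change of FPKM + 0.5, UM-164 over vehicle, of each tested gene in 6 groups, with the median as a bar and genes sorted within a group. The median was 1.91 for other RNAs without a long poly(A) tail, 0.28 for replication-dependent histone genes and -0.53 for G1/S genes. The other RNAs and the replication-dependent histone genes include some that passed the filter through their UM-164 values.

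Of 7 glioma line markers, 6 passed the filter. VIM had 346 and 426 FPKM in UM-164 libraries and 623 and 494 in vehicle libraries, and NES 93.7 and 91.2 in UM-164 libraries and 119 and 133 in vehicle libraries. OLIG2 had 6.09 and 5.89 FPKM in UM-164 libraries and 3.51 and 2.24 in vehicle libraries. SOX2 was at 22.5 to 29.04 FPKM over the 4 libraries and CD44 at 15.9 to 25.3, whereas GFAP was at 0.0487 to 0.120. S100B, a glial calcium-binding protein, rose, with 536 and 559 FPKM in UM-164 libraries and 328 and 305 in vehicle libraries. Of 8 markers of other cells, 6 (PTPRC, EPCAM, KRT5, PECAM1, CDH5 and RBFOX3) were at 0 to 0.257 FPKM, MOG was at 0.738 to 1.41 and CD68 at 16.7 to 20.2.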

How the data were processed

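RNA was sequenced from LN229 cells after 24 h in 100 nM UM-164 (2 libraries) or in vehicle (2 libraries). The authors deposited FPKM for 27694 genes in 1 table, together with their own fold changes, log2 values, p-values and q-values, which were not used. Tools in the submitters' processing notes are FastQC and cutadapt 1.9, with GRCh38 as the build, and HISAT2 stands in the series text. For the step to FPKM, the program is not given in the sources. The authors named DESeq2 for their own comparison of groups. DESeq2 was not used here, since it needs counts, and limma 3.58.1 (R 4.3.3) was used on log2(FPKM + 0.5).

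The 11516 genes that averaged 1 FPKM or more were tested, with a variance trend and Benjamini-Hochberg adjustment at 0.05 over all of them. FPKM hold no depth, and precision is given by 2 libraries per group. The test was checked on simulated data. Alternatives were other pseudocounts, filters, scalings and variance models, a replicate block and each library left out. The rule for members reads no expression value, but members and gene lists were chosen for study with earlier results of these data known. Named were every tested member, other members with at least 1 FPKM in any library, and in other lists the calls and up to 3 genes with the smallest p. Stem-loops and shared 50-base stretches came from GENCODE v29 and promoters from RefSeq GRCh38.p14, in Python 3.11.15.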

Additional observations from a re-analysis of the deposited data

How the results depend on the processing

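No member tested under an alternative was called by limma, except H1-4 when protein-coding genes were rescaled to one sum (1 member higher). At a mean FPKM of at least 5 only 5 members were tested, H1-4 not among them. The median log2 fold change of tested members, 0.28, was 0.17 at a mean FPKM of at least 5 and 0.27 to 0.40 with each library left out. Over all genes, 52 were called higher and 99 lower. These counts were 3 and 1 with no filter, 96 and 227 for rescaled protein-coding genes, 22 and 28 with no trend, and 4 to 45 and 0 to 70 with a library left out, and 158 were lower at a mean FPKM of at least 5. Other RNAs without a long poly(A) tail, 5 called, numbered 0 with no filter, 3 with no trend and 0 to 5 with a library left out. H2AX and ASF1B were each the 1 gene of its list called lower at a mean FPKM of at least 5, with rescaling and with quantile normalization, where G1/S genes called lower numbered 4, 4 and 2, and 0 to 1 with a library left out. Log2 ratios of sums ranged with a library left out from 0.17 to 0.42 for H1, from 0.035 to 0.34 for H2A and from -0.36 to 0.32 for H3, and H2B was 0.22 with median-ratio scaling. Log2 fold changes changed sign for H2AC6 (0.19 without UM-164 library 1, range -0.44 to 0.19), H2BC4 (-0.079 without vehicle library 1, range -0.079 to 0.51), H2BC12 (-0.064 without UM-164 library 2, range -0.064 to 0.23) and H2BC5 (-0.015 with median-ratio scaling, -0.0096 with rescaling, -0.21 to 0.23 with a library left out). The cause of these shifts was not tested. Replicate numbers share only a number: the correlation of same-numbered deviations was -0.06, and with the number as a replicate block 57 genes were higher, 107 lower and 0 members called (H1-4 adjusted p = 0.0680 by limma), and no pairing was assumed.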
